A study of Homo sapiens with 13 samples.

Results

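Interferon-stimulated genes are the genes that a cell switches on when interferon binds its receptors. A list of 52 such genes was followed in H1975 cells, an established human lung adenocarcinoma line of the non-small cell type, over 48 h in medium without serum. A member was measured by the probeset that carries its symbol, in its current or an older form, in the platform annotation. This gave 38 members with 1 probeset each, of 15426 probesets with a platform symbol, and DDX58 was found under its current symbol, RIGI. Of the 14 members without such a probeset, IFI6, OAS1, GBP1 and GBP2 were named only by the study's own result table and are described apart, outside all counts. The other 10 (IFI27, MX1, OAS2, OAS3, CMPK2, PARP9, PARP12, PARP14, STAT2 and LGALS3BP) were not analysed here.

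All 13 arrays came from the untreated arm of a study of EGF stimulation. By the labels, cells were washed and starved overnight in medium without FCS, and the treatment given for all 13 arrays is starvation medium, so that no array shows the line in serum. Total RNA of 1 cell line was hybridised to GeneChip Human Gene 2.0 ST arrays, in 3 replicates for 0 h (the end of the overnight starvation) and 48 h, 2 for 24 h and a single array for each of 0.5, 1, 2, 4 and 6 h. Since the labels do not tell whether replicates came from separate cultures, each p-value below sets a difference against the spread among these arrays alone, and that spread may be technical. The deposited values are SCAN scores, in which each array is standardised on its own against the background predicted from probe sequence. A score near 0 lies at background and a difference of scores is given here in SCAN units, which are not log2 folds.

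Type I and type III interferons act through receptors on the cell surface and the Janus kinases to assemble ISGF3, a complex whose DNA-binding subunit is IRF9. ISGF3 binds the interferon-stimulated response element, while dimers formed after interferon-gamma signalling bind the gamma-activated site. The induced proteins sense viral RNA, block entry, translation or release of viruses, or tag proteins with ISG15, and many of them have a basal level in cells without added interferon.

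The promoter letters of the members are shown first. The list was chosen for response to interferon, which acts through the 2 elements named above, so a high share of them could be foreseen from that choice. The shares below describe the list and do not test it. Windows from 250 bases before to 50 bases after a RefSeq transcription start (GRCh38.p14) were at hand for 30 of the 38 members, 37 windows in all, and for none of DHX58, IFIT2, IFITM2, IRF7, MX2, OASL, TRIM22 and USP18. The core of the response element, which is GAAA, any 2 bases and GAAA again, searched on both strands, stood in 24 of the 37 windows (64.9%) and in 1255 of 35116 windows of all genes (3.57%). The longer form, in which CT follows the core, stood in 16 of 37 (43.2%) against 0.273% of all windows. The letters TTCNNNGAA of the gamma-activated site, which read the same on both strands, stood in 10 of 37 (27.0%) against 7.66%. In 3 members, BST2, EPSTI1 and IFITM1, these letters overlapped a response element core. The windows of PLSCR1 overlap each other, as do those of IFI44, so the same match is counted in more than 1 window. By member, 21 of 30 held the core and 9 the gamma-activated site letters, and shares by gene over all genes were not counted. Of the 23 members with a window that were higher at 48 h in the comparison described further on, 17 held the core, as did 4 of the 7 that were not. A match is a description of letters and was not tested for binding.

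Stretches of 60 bases are given 5′ to 3′ on the strand of the gene, with every complete match to the core or its reverse complement in capitals. The first set belongs to 6 members that were higher at 24 h and at 48 h and hold the core, and it was chosen for the core. XAF1, SAMD9L and IRF9, whose 48 h differences were larger than those of EIF2AK2, DTX3L and PLSCR1, have windows in which the core was not matched. The stretches were IFI44L at chr1:78620259-78620318 (plus strand), IFITM1 at chr11:313992-314051 (plus strand), BST2 at chr19:17405723-17405782 (minus strand), EIF2AK2 at chr2:37156952-37157011 (minus strand), DTX3L at chr3:122564307-122564366 (plus strand) and PLSCR1 at chr3:146544652-146544711 (minus strand), in RefSeq coordinates of GRCh38.p14.
IFI44L: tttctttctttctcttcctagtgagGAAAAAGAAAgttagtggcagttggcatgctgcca
IFITM1: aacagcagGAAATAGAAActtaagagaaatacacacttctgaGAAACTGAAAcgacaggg
BST2: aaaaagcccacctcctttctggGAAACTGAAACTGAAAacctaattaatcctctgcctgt
EIF2AK2: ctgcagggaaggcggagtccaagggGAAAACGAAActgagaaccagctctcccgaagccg
DTX3L: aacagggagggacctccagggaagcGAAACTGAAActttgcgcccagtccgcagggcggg
PLSCR1: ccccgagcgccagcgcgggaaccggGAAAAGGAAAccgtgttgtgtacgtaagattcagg

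The second set belongs to 5 members that were not called higher over the first 24 h, of which IFIT1, ISG15 and DDX60 rose over the second day and HERC5 was lower at 48 h than at 0 h. The stretches were IFIT1 at chr10:89392488-89392547 (plus strand), ISG15 at chr1:1013362-1013421 (plus strand), DDX60 at chr4:168318789-168318848 (minus strand), IFIT3 at chr10:89327833-89327892 (plus strand) and HERC5 at chr4:88456972-88457031 (plus strand).
IFIT1: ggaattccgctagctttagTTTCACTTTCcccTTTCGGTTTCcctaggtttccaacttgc
ISG15: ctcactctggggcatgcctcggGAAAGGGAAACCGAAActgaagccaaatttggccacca
DDX60: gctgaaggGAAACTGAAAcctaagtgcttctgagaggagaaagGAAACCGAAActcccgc
IFIT3: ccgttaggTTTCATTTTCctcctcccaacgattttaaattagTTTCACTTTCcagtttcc
HERC5: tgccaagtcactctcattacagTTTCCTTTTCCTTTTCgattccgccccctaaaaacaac

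The third set shows the gamma-activated site letters, in capitals, of a pair of interferon regulatory factors, IRF9, which rose, and IRF1, which did not pass the test. They lie for IRF9 at chr14:24161176-24161235 (plus strand) and for IRF1 at chr5:132490864-132490923 (minus strand).
IRF9: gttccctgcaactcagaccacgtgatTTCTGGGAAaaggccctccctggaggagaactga
IRF1: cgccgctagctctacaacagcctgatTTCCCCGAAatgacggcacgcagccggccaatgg

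One array of each of 2 time points stood apart. The 0 h replicate 1 correlated with the other 0 h replicates at r = 0.981 and 0.982 over the 12976 tested features, against 0.996 between those others, and the 2 h array lay with it for many features. Both arrays lay above all other arrays up to 6 h for 11 of the 38 members and below all of them for 8. Shares of 28.9% and 21.1% compare with 21.0% and 18.1% of all 12976 tested features. The main counts are therefore given from all 13 arrays and again without these 2, and single differences are given again where stated. The test below gives each time point its own level, so the single 2 h array adds nothing to these differences or their errors. What changes without the 2 arrays therefore comes from leaving out 0 h replicate 1. Features named for a gene whose highest score was at least 0 were tested, 12976 in all, and all 38 members were among them. Some markers of other cell types were low: CD14 and NKG7 of leukocytes, LUM and DCN of fibroblasts and VWF of endothelium stayed at or below 0.156 on every array. Others were not: CD68, listed for leukocytes, was high on every array (2.32 to 2.65), and CDH5 of endothelium scored 0.0600 to 0.419. CDH5 was lower at 48 h than at 0 h, by a difference of -0.164 ± 0.0346 (SE, adjusted p = 0.00746) in limma. Of the measured epithelial markers, EPCAM (2.12 to 2.25) and KRT18 (2.51 to 3.00) were high throughout. KRT19 (1.59 to 1.89) and KRT7 (1.28 to 1.67) scored lower, and KRT8 (0.684 to 0.882) lowest.

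The main question was how the members stood after 48 h. The members were chosen with earlier results of these data known, so their counts beside the shares of all features are descriptions. In limma, with 1 level per time point and p-values adjusted by Benjamini-Hochberg across the 12976 features, 27 of the 38 members were higher at 48 h than at 0 h and 1, HERC5, was lower. Of all tested features 9.86% were higher and 9.68% lower. These features were not matched to the members for level, and among those with a mean score of at least 0.2 the shares were 13.6% and 13.5%. The difference was above 0 for 35 members, with a median of 0.210 SCAN units against -0.00155 for all tested features, and it ran from -0.258 to 0.666. Without the 2 arrays 29 members were higher (background 14.8%) and 2 lower (12.7%), with a median of 0.214. Leaving out 48 h replicate 2 left 16 higher (background 6.43% in that fit), and leaving out 48 h replicate 3 left 17 (6.36%). All 3 arrays of 48 h lay above all 3 of 0 h for 31 members and below them for 1, against 17.9% and 17.5% of tested features. These are arrays of bulk RNA, so more cells expressing a gene and more RNA per cell cannot be told apart.

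**Figure D1:**
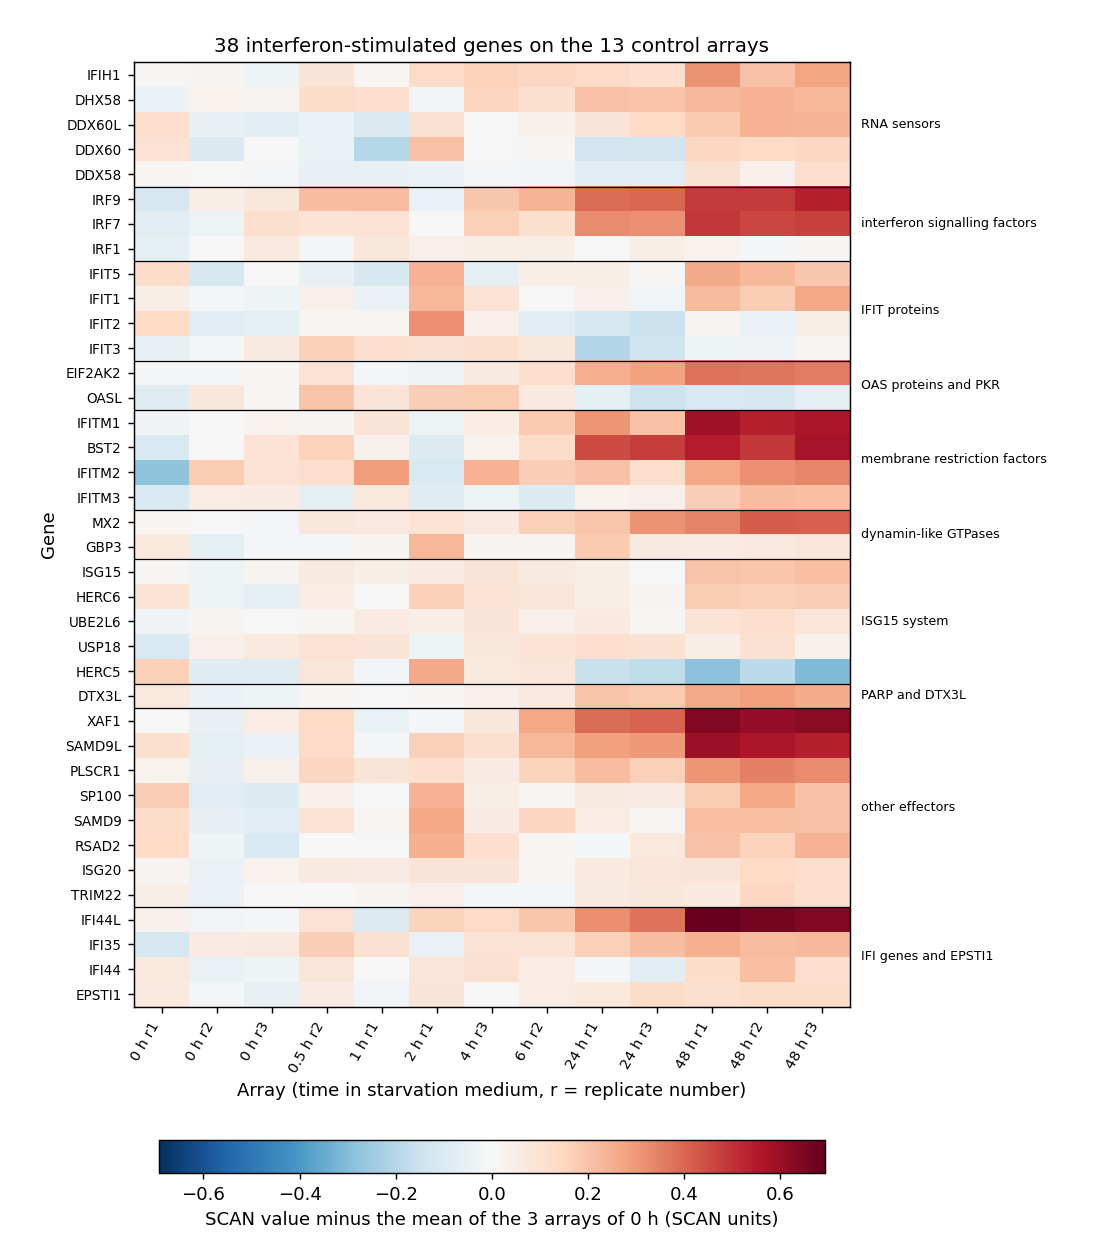
Heat map of the 38 members (rows, by role) on the 13 arrays (columns, by time in starvation medium and replicate number). Colour is the SCAN score minus the mean of the 3 arrays of 0 h, in SCAN units. The darkest red fields lie on the 3 arrays of 48 h, in IFI44L, XAF1, SAMD9L, IFITM1 and BST2, and HERC5 is blue there.

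Among the RNA sensors, 3 of 5 were higher at 48 h. IFIH1, the helicase MDA5 that senses long double-stranded RNA, scored 1.13, 1.14 and 1.09 at 0 h, 1.25 and 1.23 at 24 h and 1.43, 1.32 and 1.39 at 48 h. The 48 h arrays lay above all others and the difference from 0 h was 0.262 ± 0.0367 (SE, adjusted p = 0.000627). DHX58, the related helicase LGP2 that lacks the signalling domains, scored 0.372, 0.437 and 0.436 at 0 h, 0.616 and 0.612 at 24 h and 0.638, 0.656 and 0.644 at 48 h. Its 24 h and 48 h arrays were close together and above every earlier array, and the rise to 48 h was 0.231 ± 0.0323 (SE, adjusted p = 0.000616). DDX60L, a paralogue of the antiviral helicase DDX60, differed by 0.221 ± 0.0510 (SE, adjusted p = 0.012). DDX60 itself scored 2.12, 1.92 and 2.02 at 0 h and 2.16, 2.16 and 2.16 at 48 h, a difference of 0.142 ± 0.0463 (SE, adjusted p = 0.0578) that passed without the 2 arrays (0.191, adjusted p = 0.000856). The paralogues are similar in sequence, and signal shared between their probes was not tested. DDX58, the sensor RIG-I of short RNA with a 5′ triphosphate, did not pass at 48 h with either set of arrays (0.0871 ± 0.0343 SE, adjusted p = 0.111 on 13).

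Of the signalling factors, IRF9 and IRF7 were higher and IRF1 was not called. IRF9, the DNA-binding subunit of ISGF3, scored 0.956, 1.11 and 1.15 at 0 h, 1.46 and 1.47 at 24 h and 1.56, 1.56 and 1.61 at 48 h. No array of 24 h or 48 h overlapped an earlier one, and the 48 h difference was 0.503 ± 0.0486 (SE, adjusted p = 5.11e-05), or 0.445 without the 2 arrays. IRF7, the factor that drives further transcription of type I interferon genes, scored 0.219, 0.253 and 0.399 at 0 h, 0.616 and 0.609 at 24 h and 0.783, 0.755 and 0.767 at 48 h. It rose in steps with no overlap between the 3 times, by 0.478 ± 0.0456 (SE, adjusted p = 4.76e-05) at 48 h. IRF1, a factor that binds similar elements and is induced most by interferon-gamma, scored 0.343, 0.413 and 0.478 at 0 h and 0.438, 0.404 and 0.418 at 48 h. Its groups overlapped and the difference was 0.00833 ± 0.0393 (SE, adjusted p = 0.922), or -0.0259 without the 2 arrays.

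All 4 membrane restriction factors were higher at 48 h on the 13 arrays, though the call was lost in 8 of 19 alternative settings for IFITM2 and in 2 for IFITM3. IFITM1, which hinders fusion of virus and cell membranes, scored 1.68, 1.71 and 1.73 at 0 h, 2.01 and 1.91 at 24 h and 2.30, 2.25 and 2.27 at 48 h. Each time lay wholly above the one before, and the 48 h difference was 0.564 ± 0.0363 (SE, adjusted p = 3.87e-06). BST2, the tetherin that holds budding virions on the cell, scored 0.765, 0.874 and 0.971 at 0 h, 1.32 and 1.35 at 24 h and 1.42, 1.36 and 1.44 at 48 h. Both later times lay above 0 h by a margin larger than the spread within any time, at 0.534 ± 0.05 (SE, adjusted p = 4.13e-05) for 48 h. IFITM2 and IFITM3 hinder fusion in endosomes, and for both the 0 h replicate 1 was the lowest array of its time. IFITM2 scored 1.16, 1.62 and 1.55 at 0 h and 1.71, 1.76 and 1.79 at 48 h, so that its difference of 0.309 ± 0.0957 (SE, adjusted p = 0.0465) was 0.169 (adjusted p = 0.00421) without the 2 arrays. IFITM3 differed by 0.198 ± 0.0456 (SE, adjusted p = 0.012), or 0.144 without them. The 3 IFITM genes are near-identical over much of their length, so the share of each in these scores is uncertain.

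Of the IFIT proteins, which bind viral RNA and stop its translation, IFIT1 and IFIT5 were higher and IFIT2 and IFIT3 were not called. IFIT1 scored 1.23, 1.18 and 1.16 at 0 h, 1.22 and 1.17 at 24 h and 1.41, 1.37 and 1.46 at 48 h. The 24 h arrays lay among those of 0 h and the 48 h arrays above both, with a difference of 0.223 ± 0.0375 (SE, adjusted p = 0.00212) from 0 h. IFIT5 differed by 0.224 ± 0.0557 (SE, adjusted p = 0.0174), or 0.288 without the 2 arrays. IFIT2 scored 1.26, 1.04 and 1.06 at 0 h and 1.14, 1.07 and 1.16 at 48 h, with overlapping groups and a difference of 0.00444 ± 0.0559 (SE, adjusted p = 0.971), or 0.0747 (adjusted p = 0.14) without the 2 arrays. IFIT3, a partner of IFIT1, ended near its start, at -0.0140 ± 0.0386 (SE, adjusted p = 0.855), or -0.0394 without them.

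EIF2AK2, the kinase PKR that halts translation on double-stranded RNA, scored 2.04, 2.04 and 2.07 at 0 h, 2.30 and 2.33 at 24 h and 2.43, 2.42 and 2.41 at 48 h. Its groups did not overlap and it rose by 0.369 ± 0.0302 (SE, adjusted p = 1.69e-05). OASL, a relative of the oligoadenylate synthetases that makes no oligoadenylate, scored 0.992, 1.16 and 1.09 at 0 h and 0.972, 0.967 and 1.02 at 48 h. The difference was -0.0927 ± 0.0452 (SE, adjusted p = 0.196), and without the 2 arrays -0.136 (adjusted p = 0.0128), which made it the second member that was lower in that fit. MX2, a dynamin-like GTPase that blocks nuclear entry of HIV-1, scored 0.341, 0.325 and 0.320 at 0 h, 0.523 and 0.639 at 24 h and 0.671, 0.749 and 0.741 at 48 h. The 48 h arrays were all above those of 24 h, which were above those of 0 h, and the difference was 0.391 ± 0.0394 (SE, adjusted p = 6.62e-05). GBP3, a guanylate-binding protein, was not called (0.0710 ± 0.0444 SE, adjusted p = 0.323, and 0.107 without the 2 arrays).

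On the 13 arrays the ISG15 system was the one group with calls in both directions. ISG15, a ubiquitin-like modifier, scored 0.627, 0.588 and 0.635 at 0 h, 0.662 and 0.621 at 24 h and 0.814, 0.807 and 0.827 at 48 h. Its 24 h arrays lay among or just above those of 0 h and its 48 h arrays above all others, by 0.199 ± 0.0317 (SE, adjusted p = 0.00146). HERC5, the main ligase that joins ISG15 to proteins in human cells, scored 1.29, 1.04 and 1.04 at 0 h, 0.970 and 0.948 at 24 h and 0.839, 0.945 and 0.820 at 48 h. It was lower on every array of 24 h and 48 h than on any earlier one, and the 48 h difference was -0.258 ± 0.0650 (SE, adjusted p = 0.0189). That value contains a high 0 h replicate 1, and without the 2 arrays it was -0.174 (adjusted p = 0.0037). HERC6, a related ligase that takes this role in mice, was higher by 0.170 ± 0.0428 (SE, adjusted p = 0.0186). The conjugating enzyme UBE2L6 (0.0986 ± 0.0333 SE, adjusted p = 0.0647) and USP18, which removes ISG15 and dampens receptor signalling (0.0597 ± 0.0469 SE, adjusted p = 0.441, and 0.00709 without the 2 arrays), were not called, and the near-identical copy USP41 makes the USP18 score uncertain.

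DTX3L, a ubiquitin ligase that works with PARP9, was higher by 0.269 ± 0.0374 (SE, adjusted p = 0.000602), from 1.99, 1.87 and 1.89 at 0 h to 2.18, 2.20 and 2.18 at 48 h. Of the 8 other effectors 7 were higher. XAF1, an antagonist of the apoptosis inhibitor XIAP, scored 1.34, 1.28 and 1.38 at 0 h, 1.72 and 1.74 at 24 h and 1.98, 1.94 and 1.96 at 48 h. Its 3 times did not overlap and it rose by 0.626 ± 0.0349 (SE, adjusted p = 1.68e-06). SAMD9L, a restriction factor that slows growth and translation, scored 0.987, 0.810 and 0.839 at 0 h, 1.16 and 1.18 at 24 h and 1.47, 1.44 and 1.42 at 48 h. It rose by 0.564 ± 0.0464 (SE, adjusted p = 1.74e-05), and by 0.618 without the 2 arrays. PLSCR1, a phospholipid scramblase with antiviral action, rose by 0.328 ± 0.0364 (SE, adjusted p = 0.000129).

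Smaller rises were seen in the remaining effectors. They were 0.215 ± 0.0630 (SE, adjusted p = 0.0372) for SP100, a scaffold of nuclear bodies, 0.206 ± 0.0499 (SE, adjusted p = 0.0157) for SAMD9, 0.201 ± 0.0582 (SE, adjusted p = 0.0354) for RSAD2, the radical enzyme viperin, and 0.116 ± 0.0337 (SE, adjusted p = 0.036) for ISG20, an RNA exonuclease. These calls were lost in 8 of 19 alternative settings for SP100 and for RSAD2, in 7 for ISG20 and in 4 for SAMD9. In SP100, SAMD9 and RSAD2 the 0 h replicate 1 was the highest of its time. Without the 2 arrays the differences were 0.299, 0.269 and 0.271. TRIM22, a ubiquitin ligase, lay at background (0.0334, -0.0505 and -0.00847 at 0 h, 0.0602, 0.135 and 0.110 at 48 h), and its difference of 0.110 ± 0.0358 (SE, adjusted p = 0.056) passed without the 2 arrays (0.131, adjusted p = 0.0101).

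All 4 measured members of the IFI group with EPSTI1 were higher on the 13 arrays, though the call was lost in 9 of 19 alternative settings for EPSTI1 and in 6 for IFI44. IFI44L, whose product restrains several viruses by a mechanism that is not settled, had the highest difference of the 38 members. It scored 1.71, 1.66 and 1.66 at 0 h, 2.00 and 2.05 at 24 h and 2.37, 2.34 and 2.32 at 48 h. The times did not overlap and the difference was 0.666 ± 0.0334 (SE, adjusted p = 1.06e-06). Its paralogue IFI44 differed by 0.150 ± 0.0431 (SE, adjusted p = 0.0336), IFI35 by 0.229 ± 0.0496 (SE, adjusted p = 0.00864) and EPSTI1, a gene also induced in breast tumours next to stroma, by 0.121 ± 0.0379 (SE, adjusted p = 0.048). Without the 2 arrays these differences were 0.186, 0.168 and 0.155. Over the 19 alternative settings, 16 of the 28 calls at 48 h held in all, and 12 were lost in some. Beside the 8 members named above with their counts, these were HERC6 (5 settings), and DDX60L, IFIT5 and HERC5 (2 each).

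**Figure D2:**
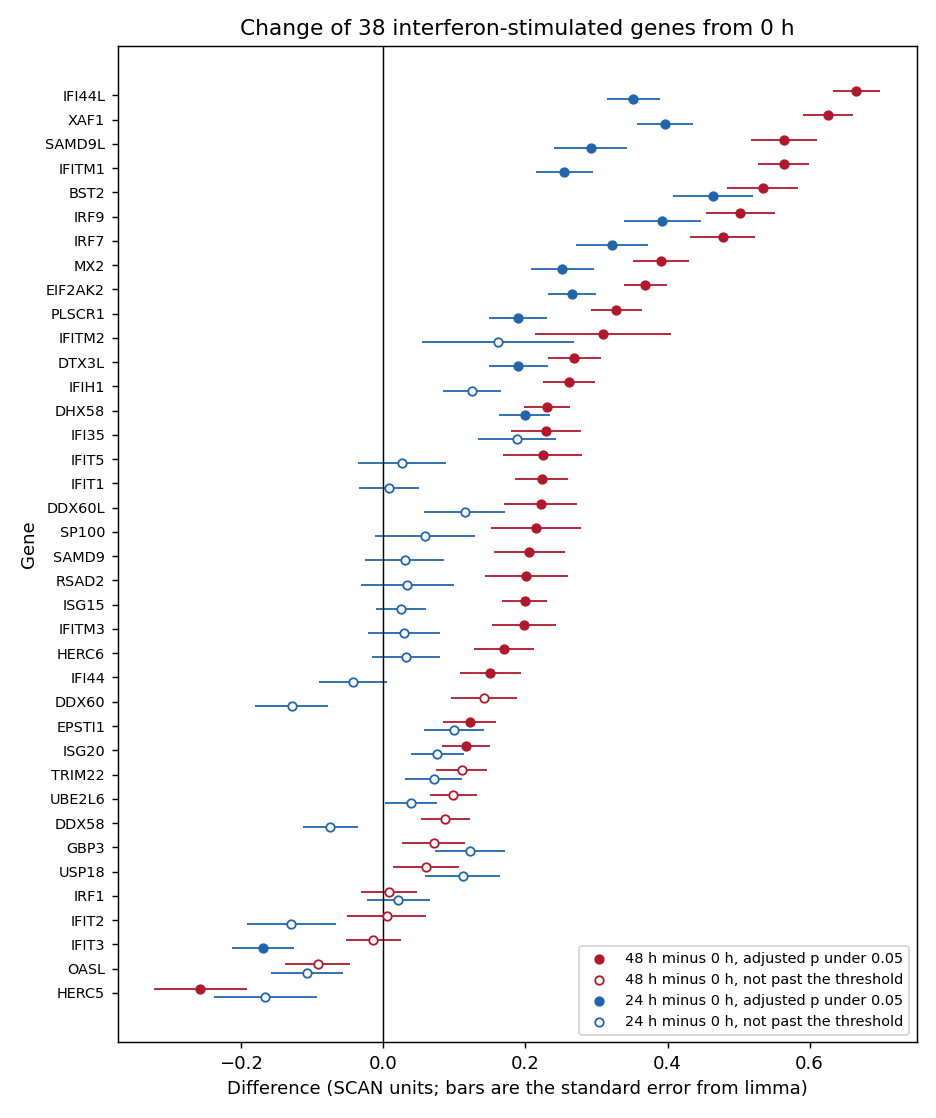
Difference from 0 h (horizontal axis, SCAN units) of each of the 38 members at 48 h (red, 3 arrays) and 24 h (blue, 2 arrays), with the standard error from limma on 13 arrays as bars. Filled points passed an adjusted p of 0.05. From IFI44L at 0.666 to ISG20 at 0.116 the filled red points lie to the right of 0, and HERC5 lies at -0.258.

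The next question was how much of this was present after 1 day. At 24 h, 12 members were higher than at 0 h (background 5.33%) and 1, IFIT3, was lower (2.37%). The 24 h and 48 h comparisons share the 0 h arrays, so their values stand side by side and are not independent. The median of the members was 0.0880 SCAN units against 0.0161 for all tested features. Without the 2 arrays 18 were higher (12.8%) and 2, IFIT3 and OASL, lower (4.72%). At an unadjusted p under 0.05 on all 13 arrays, 16 were higher (14.9%) and 3 lower (6.33%). Leaving out 24 h replicate 1 left 6 higher (background 1.07% in that fit) and leaving out 24 h replicate 3 left 5 (0.655%), with 1 array standing for the time. Both 24 h arrays lay above all 3 of 0 h for 18 members (23.4% of tested features) and below all 3 for 5 (11.9%).

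The 12 members were DHX58, IRF7, IRF9, EIF2AK2, IFITM1, BST2, MX2, DTX3L, SAMD9L, PLSCR1, XAF1 and IFI44L, all of them also higher at 48 h. BST2 differed by 0.464 ± 0.0559 (SE, adjusted p = 0.00155) at 24 h, which was 86.9% of its 48 h difference (85.4% without the 2 arrays). XAF1 differed by 0.396 ± 0.0391 (SE, adjusted p = 0.000662), or 63.3% of the later value. IRF9 had reached 78.1%, EIF2AK2 72.0% and DTX3L 70.8%, while IFI44L had reached 52.8% and IFITM1 45.2%. These shares are descriptions without a test, since both values contain the same 0 h arrays. Members called at 48 h but not at 24 h included ISG15, at 0.0249 ± 0.0354 (SE, adjusted p = 0.773) for 24 h, and IFIT1, at 0.00802 ± 0.0419 (SE, adjusted p = 0.949), which had covered 12.5% and 3.60% of their 48 h difference (14.6% and 11.9% without the 2 arrays).

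IFIT3 scored 1.64, 1.68 and 1.76 at 0 h, 1.86 at 0.5 h, 1.77 at 6 h, 1.49 and 1.56 at 24 h and 1.66, 1.67 and 1.71 at 48 h. Both 24 h arrays lay below every other array and the 48 h arrays were back in the range of 0 h. The 24 h difference was -0.169 ± 0.0431 (SE, adjusted p = 0.0417), and it was no longer past the threshold in 11 of 19 alternative settings, with values from -0.218 to -0.138.

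The second day was tested directly by setting 48 h against 24 h. In that comparison 7 members were higher (background 0.624%) and 0 lower (2.21%), and at an unadjusted p under 0.05, by limma, 20 were higher (3.45%) and 0 lower (10.4%). The median of the members was 0.138 SCAN units, above 0 in 34 of 38, against -0.0207 for all tested features. All 3 arrays of 48 h lay above both of 24 h for 31 members (11.9%) and below both for 1 (29.3%). The estimates of this comparison do not use the 0 h arrays, but its error does, and without the 2 arrays 22 members were higher (2.71%) and 0 lower (7.61%).

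The 7 members were IFI44L (0.314 ± 0.0373 SE, adjusted p = 0.0017), IFITM1 (0.309 ± 0.0405 SE, adjusted p = 0.00263), SAMD9L (0.272 ± 0.0519 SE, adjusted p = 0.0198), DDX60 (0.271 ± 0.0517 SE, adjusted p = 0.0198), XAF1 (0.230 ± 0.0391 SE, adjusted p = 0.0109), IFIT1 (0.215 ± 0.0419 SE, adjusted p = 0.0225) and ISG15 (0.174 ± 0.0354 SE, adjusted p = 0.0273). Of these, 4 had also risen by 24 h (IFI44L, IFITM1, SAMD9L and XAF1) and so were called over both days. IFIT1 and ISG15 were called over the second day and over the whole course but not over the first. DDX60 scored 1.88 and 1.89 at 24 h, below all arrays of 0 h, and 2.16, 2.16 and 2.16 at 48 h, so its rise over the second day followed a lower score at 24 h (-0.129 ± 0.0517 SE, adjusted p = 0.182 against 0 h). Another 8 members (DHX58, IRF7, IRF9, EIF2AK2, BST2, MX2, DTX3L and PLSCR1) were called at 24 h and at 48 h against 0 h. With all arrays used, none of them was called between 24 h and 48 h. For BST2 the second day added 0.0701 ± 0.0559 (SE, adjusted p = 0.667) and for IRF7 0.156 ± 0.0510 (SE, adjusted p = 0.18). Without the 2 arrays that stood apart, limma called IRF7 (adjusted p = 0.0239), MX2 (0.0389) and PLSCR1 (0.026) higher over the second day. In that fit IRF9 (adjusted p = 0.0505), EIF2AK2 (0.0523), DTX3L (0.132), BST2 (0.284) and DHX58 (0.584) were still not called. Leaving out 1 array of 24 h or 48 h left 2 to 4 of the 7 calls, in fits where 0.123% to 0.324% of all features were higher, and IFI44L and IFITM1 were among them each time.

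**Figure D3:**
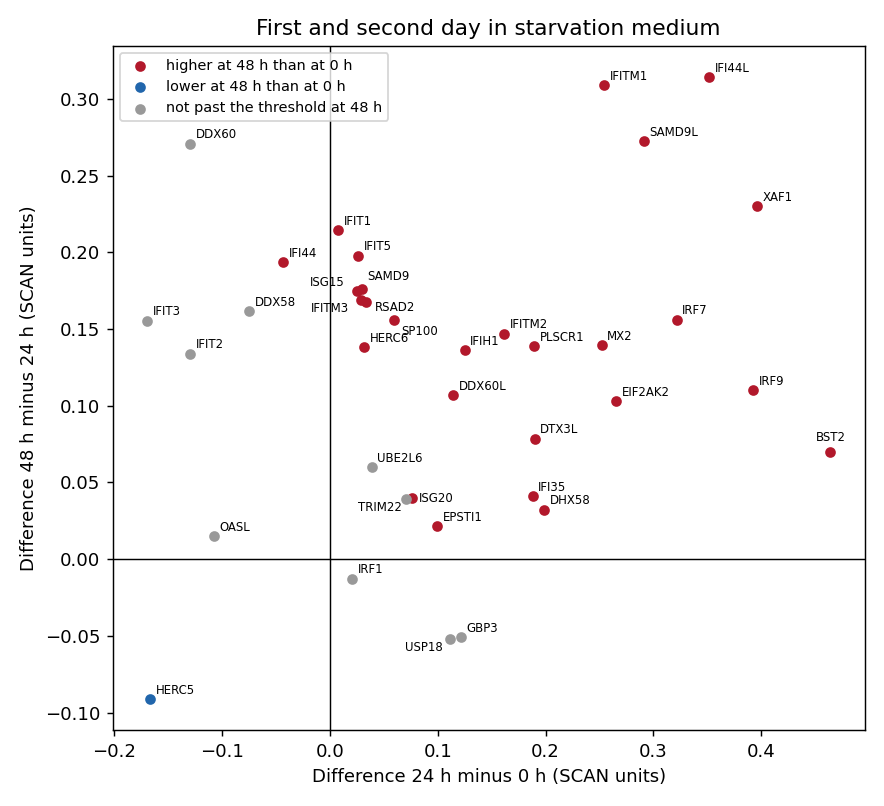
Difference over the first day (24 h minus 0 h, horizontal axis) and over the second (48 h minus 24 h, vertical axis) of each of the 38 members, in SCAN units. The 2 axes share the 24 h arrays with opposite sign. Colour gives the call of 48 h against 0 h. IFI44L, IFITM1, SAMD9L and XAF1 lie high on both axes, BST2 and IRF9 far to the right, and IFIT1, ISG15 and DDX60 near or left of 0 on the horizontal axis.

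**Figure D4:**
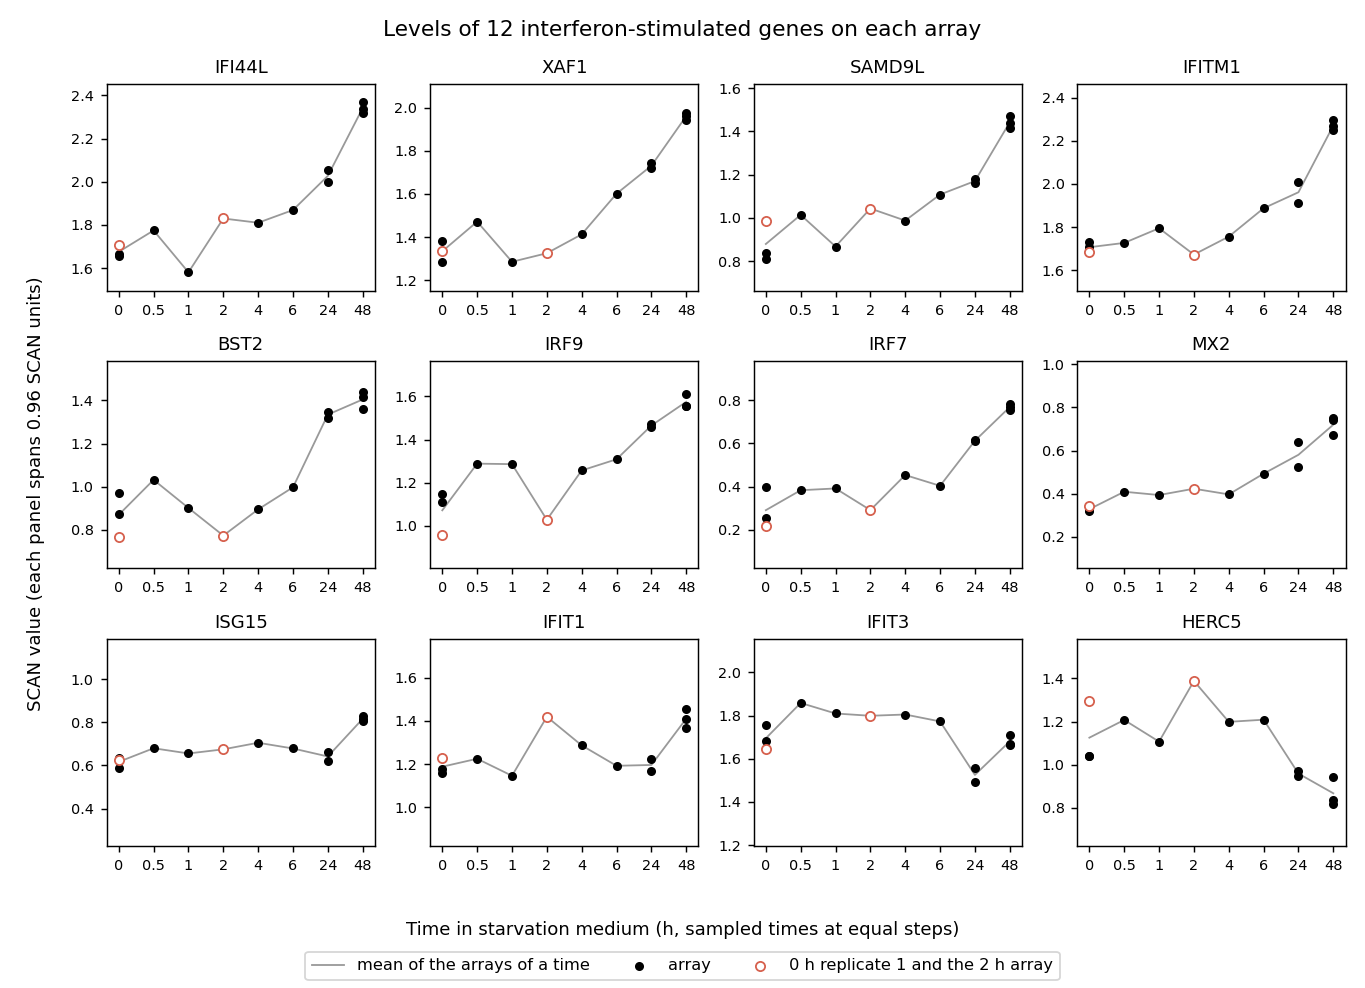
SCAN score of 12 members on each of the 13 arrays against time in starvation medium, with the sampled times at equal steps and every panel spanning 0.96 SCAN units. Lines join the means of each time and open points are the 2 arrays that stood apart. IFI44L, XAF1 and SAMD9L lie above all arrays of 0 h from 6 h on, and each of them also does so on some earlier arrays. ISG15 is highest at 48 h, IFIT1 is high at 48 h and on the 2 h array, IFIT3 dips at 24 h and HERC5 declines after 6 h.

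The early times have 1 array each, so pairs of neighbouring times were averaged for a test. For the mean of 4 h and 6 h against 0 h, limma called 0 members (background 0% in either direction). At an unadjusted p under 0.05, 12 members were higher and 0 lower, against 3.79% and 1.1% of tested features. The lowest of these p-values belonged to XAF1 (0.173 SCAN units, adjusted p = 0.789), IFI44L (0.164), IRF9 (0.211), IFIH1 (0.149) and DHX58 (0.129). Without the 2 arrays 1 member was higher (background 0.17%) and 0 lower (0.0154%, limma). The member was SAMD9L, at 0.223 ± 0.0359 (SE, adjusted p = 0.0291). It scored 0.987 at 4 h and 1.11 at 6 h against 0.810 and 0.839 on the other 2 arrays of 0 h.

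For the mean of 0.5 h and 1 h, limma again called 0 members (background 0%), also without the 2 arrays (0.185% higher and 0.0154% lower). At an unadjusted p under 0.05, 6 were higher (7.98%) and 1 lower (1.11%). The 6 were IRF9 (0.215), DHX58 (0.121), IFIT3 (0.139), PLSCR1 (0.119), OASL (0.143) and IFI35 (0.137), and DDX60 was the one below (-0.122). IRF9 scored 1.29 at 0.5 h and 1.29 at 1 h but 1.03 at 2 h, on the array that stood apart. The 0.5 h array lay above all 3 of 0 h for 17 of 38 members (background 33.4%), the 1 h array for 15 (32.5%), the 2 h array, which stood apart, for 22 (27.5%), the 4 h array for 20 (27%) and the 6 h array for 18 (23.1%).

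Of the 4 genes named only by the study's table, IFI6 and OAS1 were higher at 24 h and at 48 h than at 0 h. IFI6, a small protein of the endoplasmic reticulum and mitochondria that blocks flavivirus replication, scored 1.90, 2.45 and 2.47 at 0 h, 2.87 and 2.97 at 24 h and 3.21, 3.21 and 3.24 at 48 h. The 0 h replicate 1 was far below the other 2 of its time, so the 48 h difference of 0.948 ± 0.123 (SE, adjusted p = 0.000373) became 0.761 without the 2 arrays. OAS1, a synthetase of the oligoadenylate that activates RNase L, scored 1.38, 1.37 and 1.38 at 0 h, 1.69 and 1.69 at 24 h and 2.06, 1.99 and 2.07 at 48 h. It rose over both days, by 0.311 ± 0.0370 (SE, adjusted p = 0.00153) and then by 0.352 ± 0.0370 (SE, adjusted p = 0.000925). The guanylate-binding GTPases GBP1 (0.0464 ± 0.0327 SE, adjusted p = 0.386) and GBP2 (0.122 ± 0.0672 SE, adjusted p = 0.259) were not called, although GBP2 passed without the 2 arrays (0.217, adjusted p = 0.000112).

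The parts of the pathway before and beside the members were looked at from lists that hold none of them. Of all tested features 9.86% were higher at 48 h and 9.68% lower, and without the 2 arrays 14.8% and 12.7%. The counts in these short lists were not tested against those shares. Of 9 listed interferon genes 1 was measured, IFNE, an interferon of epithelia. It scored 0.693, 0.524 and 0.564 at 0 h, 0.867 and 0.791 at 24 h and 0.909, 0.850 and 0.839 at 48 h. Its later arrays lay above all of 0 h, with a 48 h difference of 0.273 ± 0.0474 (SE, adjusted p = 0.00253), or 0.322 without the 2 arrays. Of 5 measured receptors and kinases 1 was higher, IFNGR2, a chain of the interferon-gamma receptor whose probeset was named by the study's table (0.358 ± 0.0357 SE, adjusted p = 6.36e-05). JAK1 (-0.0613 ± 0.0345 SE, adjusted p = 0.268), JAK2 and TYK2 were not called. Among the 11 tested genes of nucleic acid sensing, the adaptors MYD88 (0.255 ± 0.0444 SE, adjusted p = 0.00253) and TMEM173, known as STING (0.213 ± 0.0633 SE, adjusted p = 0.0391), were higher. The DNA sensor MB21D1, known as cGAS (-0.260 ± 0.0639 SE, adjusted p = 0.0167), and TLR3, a sensor of double-stranded RNA near background (-0.151 ± 0.0372 SE, adjusted p = 0.0168), were lower, with a median of 0.0603 over the list. Part of the TMEM173 and MB21D1 differences rests on 0 h replicate 1, which scored 1.05 against 1.26 and 1.32 for TMEM173 and 1.48 against 1.23 and 1.26 for MB21D1. Without the 2 arrays 2 receptors and kinases were higher and 0 lower. Of the sensing genes 3 were then higher and 2 lower, with a median of 0.0398.

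Of 4 measured negative regulators 1 was higher (9.86% of all tested features), SOCS3, an inhibitor of cytokine receptor signalling (0.250 ± 0.0370 SE, adjusted p = 0.000901). Without the 2 arrays the count was also 1 (14.8%). A list of 30 further interferon-inducible genes was set beside the members, of which 13 were tested. In that list 1 was higher at 48 h (9.86% of all tested features), SP110, a nuclear body protein related to SP100 (0.276 ± 0.0440 SE, adjusted p = 0.00149). The median of the list was 0.0323 SCAN units against 0.210 for the members. Without the 2 arrays 2 were higher (14.8%), and the medians were 0.0529 and 0.214. Both lists, like the members, were chosen with earlier results of these data known, and they were not matched for level. Their medians are therefore descriptions and do not test whether the members differ from other interferon-inducible genes. The chemokines CXCL10 and CXCL11, which interferon-gamma induces, stayed near background, from -0.137 to 0.00112 and from -0.0546 to 0.107 over the 13 arrays. Markers of lung adenocarcinoma moved at 48 h as well, with 3 of 5 higher (9.86% of all tested features) and 3 without the 2 arrays (14.8%). Among them was NAPSA, an aspartic protease of alveolar cells (1.20 ± 0.0471 SE, adjusted p = 4.76e-07). The relation of these markers to the members was not tested.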

How the data were processed

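Per the labels and the study's methods, RNA was hybridised to GeneChip Human Gene 2.0 ST arrays and the authors normalised each array alone by SCAN. The deposited values are SCAN scores per probeset, and probesets were mapped to genes with NetAffx release 34. No columns of other samples were present. The study's result table gave only the names of 212 further probesets.

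Scores were used as deposited. Features with a gene name and a highest score of at least 0 were kept (12976 of 39937), and limma 3.58.1 in R 4.3.3 was fitted over all 13 arrays with 1 level per time point (5 residual degrees of freedom) and Benjamini-Hochberg adjustment, threshold 0.05. The script was tested on simulated data. The number of arrays limits the precision, with a median SE of 0.0408 for 48 h against 0 h. Members and lists were chosen with earlier results of these data known. Alternatives changed the scaling, filter, annotation, prior, weights and arrays. Named in depth were members past the threshold, up to 30, and up to 4 genes of each other list. Promoter windows came from RefSeq (GRCh38.p14).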

Additional observations from a re-analysis of the deposited data

How the results depend on the processing

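Of 19 alternative settings none reversed a call, but many of them could not. Changes of the filter or the prior leave the estimates as they are and alter only the error or the adjustment. Leaving out an array of a time outside a comparison likewise leaves its estimate unchanged. Leaving out 0 h replicate 1 alone or with the 2 h array gave the same fit. All settings kept 16 of the 28 calls of 48 h against 0 h, 4 of the 13 of 24 h against 0 h and 2 of the 7 of 48 h against 24 h. Shares in brackets are those of all tested features called in the same fits. Leaving out 1 array gave 16 to 29 higher (6.36% to 14.8%) and 0 to 2 lower members (6.13% to 12.7%) at 48 h, with 16 without 48 h replicate 2 and 17 without 48 h replicate 3. At 24 h it gave 5 to 18 higher (0.655% to 12.8%) and 0 to 2 lower (0.285% to 4.72%), and at 4 and 6 h 0 to 1 higher (0% to 0.17%). Over the second day it gave 2 to 22 higher (0.123% to 2.71%), with 22 without 0 h replicate 1, 4 without 48 h replicate 2 and 2 without either 24 h array, 48 h replicate 1 or 48 h replicate 3.

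Array weights gave 2 lower at 48 h (14.1%), 2 lower at 24 h (4.75%) and 22 higher over the second day (2.71%). Leaving out both arrays that stood apart gave 2 (12.7%), 2 (4.72%) and 22 (2.71%), and 1 higher at 4 and 6 h (0.17%). Quantile normalisation of the 11 other arrays, chosen after seeing the data, gave 2 (14.2%), 3 (7.27%) and 24 (3.89%). The 2 arrays to leave out were also picked from these data. Without them the median SE of 48 h against 0 h was 0.0359, against 0.0408 on all 13 arrays. The single lower call at 24 h, IFIT3, was lost (0 lower) under quantile normalisation of all 13 arrays (3.34%), with all features tested (1.24%), with a trended robust prior (2.14%) and with the replicate block (1.32%). The cause of these shifts was not tested. Replicate numbers did not pair the arrays (correlations of same-number deviations from -0.152 to 0.0617). With the replicate number as a block 23 of 28, 10 of 13 and 5 of 7 calls held, and RSAD2, ISG20, SP100, IFI44 and EPSTI1 were those lost at 48 h. The 5 single-array times have no spread of their own, and scores near 0 give little signal over background.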
